A study of Mus musculus with 6 samples.

Results

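The genes described are the 6 members of the Gata transcription factor family, Gata1 to Gata6, in cells sorted by a reporter of Nkx2-1. The members were chosen by name: each is a row of the deposited table whose platform annotation gives exactly 1 gene symbol, and that symbol is 1 of the 6. Each member had a single such row, so 6 of the 19938 genes measured belong to the family. Arrays were used to measure gene expression in cells made from mouse embryonic stem cells of the W4/129S6 background. In these a green fluorescent protein (GFP) gene sits in the Nkx2-1 locus, which encodes a homeodomain factor of lung, thyroid and ventral forebrain. All 6 samples carry the reporter and were differentiated for 14 days. The group Nkx2-1 high is 3 samples of GFP-positive cells (genotype label Nkx2-1GFP+), and Nkx2-1 low is 3 samples of GFP-negative cells (Nkx2-1GFP-). The labels' protocols call the replicates biological. Whether the line is 1 clone, and which factors were used to differentiate it, is not given in the sources used here. RNA came from whole sorted fractions, in which fewer cells of a type and less RNA per cell cannot be told apart.

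Gata factors bind DNA at short motifs around the letters GATA through paired zinc fingers, and cofactors of the Fog family (Zfpm1 and Zfpm2) bind to the N-terminal finger. Gata1, Gata2 and Gata3 are best known from blood, where Gata1 drives red cell and platelet development, Gata2 maintains stem and progenitor cells and Gata3 directs T cells. Gata2 and Gata3 also act in neurons, trophoblast, kidney, inner ear and other tissues, while Gata4, Gata5 and Gata6 act in heart, endoderm and its organs, with Gata6 known for its part in lung epithelium.

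Nkx2-1 itself stood at 7.62, 7.77 and 7.77 on the log2 scale in the Nkx2-1 high samples and at 5.42, 5.23 and 5.34 in the Nkx2-1 low samples, so the groups were in accord with their labels. Array medians ran from 4.98 to 5.06, and samples of a group correlated across genes at Pearson r from 0.994 to 0.996. A background level of 4.30 was taken from olfactory and vomeronasal receptor genes. The labels describe the positive cells as endodermal. The endoderm factor gene Foxa2 averaged 5.74 ± 0.09 in the positive cells and 5.78 ± 0.18 in the negative ones (SD, n = 3 each). Of 18 definitive endoderm and gut genes 9 were above background. Hhex, a foregut homeobox gene, was higher in the positive cells (5.68 against 4.70) and the epithelial adhesion gene Epcam lower (4.31 against 5.13), while Sox17 was not above background in either group. Of 18 distal lung genes 14 were above background. The surfactant gene Sftpa1 was higher in the positive cells (5.32 against 4.83), and Sftpc and Scgb1a1 were not above background.

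Gata3 was higher and Gata2 lower in GFP-positive cells, and the remaining 4 members did not pass the test. Gata3 rose 1.72-fold and Gata2 fell 1.95-fold between the fractions. In all, 1 of the 6 members rose, where 2.90% of all genes did, and 1 fell, where 3.09% did. Together 2 of 6 were called, against 6.0% of all genes. With only 6 members, these counts describe the genes named and say little about the family as a group. The median difference of the members was 0.09 on the log2 scale, beside -0.01 over all genes. Here a gene "rose" or "fell" in the positive cells if its adjusted p was under 0.05 in limma, a linear model with spreads moderated across genes.

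**Figure D1:**
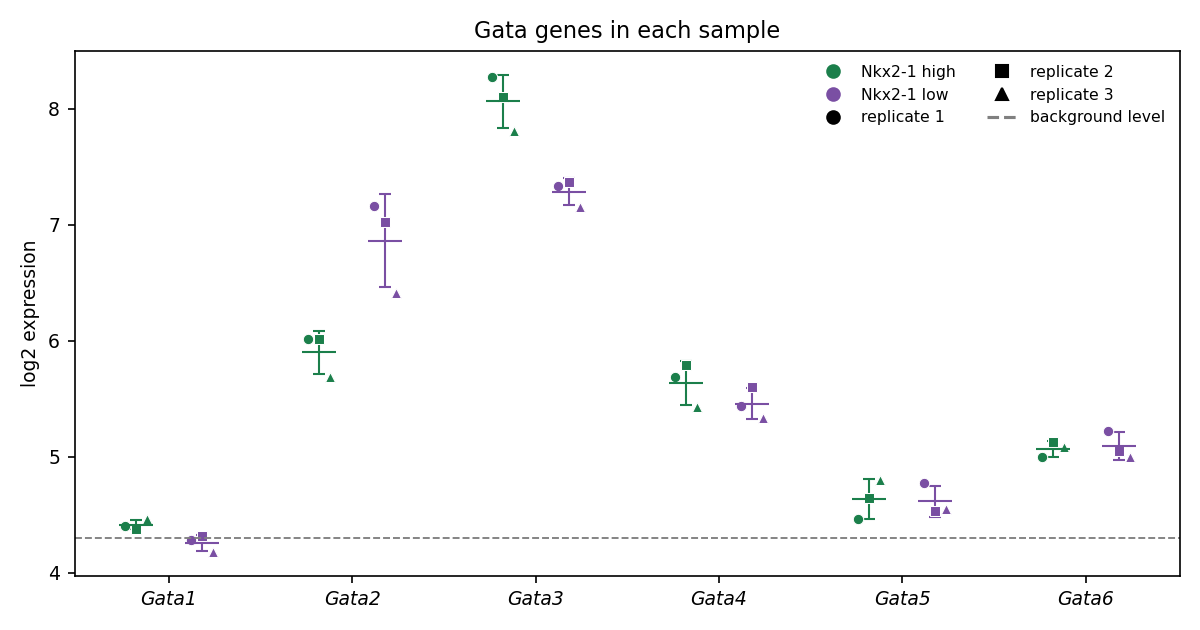
Log2 expression of Gata1 to Gata6 in each of the 6 samples, with Nkx2-1 high in green and Nkx2-1 low in purple, symbols for the replicate number, and the mean with its SD (n = 3) as bars. The dashed line is the background level of 4.30. The groups lie apart for Gata2 and Gata3, by less for Gata1, and overlap for Gata4, Gata5 and Gata6. Levels are to be compared within a gene, since each gene has its own probes.

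Gata3, which directs T cell fate and is also needed in the nephric duct, parathyroid, inner ear and sympathetic neurons, had log2 values of 8.27, 8.10 and 7.81 in Nkx2-1 high and of 7.33, 7.37 and 7.15 in Nkx2-1 low. The lowest positive sample lay 0.44 above the highest negative one, a gap close to the 0.46 that the positive samples spanned among themselves and wider than the 0.22 that the negative ones spanned. The mean was 8.06 ± 0.23 (SD, n = 3) against 7.28 ± 0.12 (SD, n = 3). The difference of 0.78 ± 0.12 (SE, limma adjusted p = 0.00488) had a 95% interval from 0.51 to 1.05, or 1.43-fold to 2.07-fold. Among the 579 genes that rose it ranked 166th, so many genes moved further. Both means were far above the background level: Gata3 was a transcript of both fractions, stronger in the positive one. Permuting the samples exactly (two-sided) gave p = 0.1, below which a design of 3 against 3 cannot go.

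Gata2, a factor of blood progenitors, endothelium, trophoblast and several neuron classes, ran the other way. Its log2 values were 6.01, 6.01 and 5.69 in Nkx2-1 high and 7.16, 7.02 and 6.41 in Nkx2-1 low. Every negative sample lay above every positive one, by at least 0.40, but the negative samples themselves spanned 0.76, with replicate 3 well below the other 2. Replicate 3 was also the lowest positive sample. It was the lowest of both groups for Gata3 and Gata4 too, but not for Gata1, Gata5 and Gata6. The mean was 5.90 ± 0.19 (SD, n = 3) against 6.86 ± 0.40 (SD, n = 3). The difference was -0.96 ± 0.18 (SE, limma adjusted p = 0.0132), with a 95% interval from -1.36 to -0.56, and the exact permutation test (two-sided) was again at p = 0.1. It ranked 71st among the 617 falls. Its SE was large: 1.36% of all genes had one as large. The call was lost without either of 2 negative samples. Without Nkx2-1 low replicate 1 the difference was -0.81 (limma adjusted p = 0.0510), without Nkx2-1 low replicate 2 it was -0.88 (adjusted p = 0.0566), and without Nkx2-1 low replicate 3, the sample at 6.41, it was -1.19 (adjusted p = 0.000820). Gata3 kept its call in all 6 fits without 1 sample, with limma adjusted p from 0.00162 to 0.0275.

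**Figure D2:**
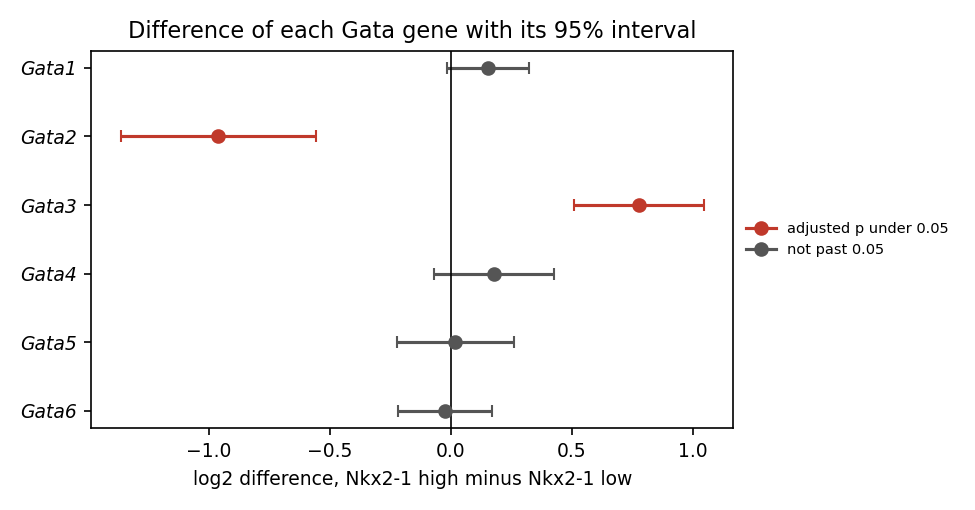
Log2 difference (Nkx2-1 high minus Nkx2-1 low) of each Gata gene with its 95% interval from limma, red where the adjusted p was under 0.05. The intervals of Gata2 (-1.36 to -0.56) and Gata3 (0.51 to 1.05) lie on opposite sides of 0, and those of the other members include 0.

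The sequences just before the transcription starts of the members that changed are shown so that both can be seen beside their values. They are the 250 bases before each start that RefSeq's promoter table (build GRCm38.p6) gives for Gata3 and Gata2, written 5′ to 3′ on the gene's own strand, with capitals on the CpG dinucleotides, the sites of DNA methylation in mammals. Windows of 4 of the 6 members were used. Gata4 had no entry there and Gata6 was left out, so neither was searched or counted below. Gata2 has a distal and a proximal start there. Gata3 lies on chr2:9878601-9878850 (minus strand), the distal Gata2 window on chr6:88193641-88193890 (plus strand) and the proximal one on chr6:88198414-88198663 (plus strand).
Gata3: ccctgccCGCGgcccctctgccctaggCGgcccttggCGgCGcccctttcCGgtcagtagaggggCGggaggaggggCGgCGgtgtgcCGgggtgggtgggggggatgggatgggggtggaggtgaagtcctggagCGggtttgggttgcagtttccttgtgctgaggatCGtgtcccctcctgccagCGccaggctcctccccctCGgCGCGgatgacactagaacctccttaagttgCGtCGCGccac
Gata2, distal start: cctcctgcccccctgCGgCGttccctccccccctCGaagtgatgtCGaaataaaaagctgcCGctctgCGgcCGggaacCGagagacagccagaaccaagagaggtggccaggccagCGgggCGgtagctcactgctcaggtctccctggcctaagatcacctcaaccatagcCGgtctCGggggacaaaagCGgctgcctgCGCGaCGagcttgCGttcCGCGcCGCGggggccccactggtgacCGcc
Gata2, proximal start: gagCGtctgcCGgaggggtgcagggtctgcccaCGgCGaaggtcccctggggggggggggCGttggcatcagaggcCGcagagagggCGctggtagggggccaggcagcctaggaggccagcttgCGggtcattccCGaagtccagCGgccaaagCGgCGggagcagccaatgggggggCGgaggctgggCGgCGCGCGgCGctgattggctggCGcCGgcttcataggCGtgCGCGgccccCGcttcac

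All 3 windows are rich in G and C. The share was 70.0% before Gata3 and 67.2% and 74.0% before Gata2, beside a median of 52.4% over the 32851 windows of the table. They hold 19, 22 and 24 CpG, beside a median of 6. Windows with at least 19 CpG make up 19.7% of the table, and those with at least 24 make up 12%, so many genes have such starts. The Gata5 window resembles them, with 70.0% and 22 CpG, while the Gata1 window has 54.0% and 2 CpG. Gata factors are known to regulate their own genes and each other, so the windows were searched on both strands for the GATA motif, as AGATAA or AGATAG or TGATAA or TGATAG, which 26.5% of all windows hold. They were also searched for CAAGTG, a core that NK-class homeodomain factors bind, which 11.6% hold. None of the 5 windows of Gata1, Gata2, Gata3 and Gata5 holds either set of letters, which says only that these letters are not in these bases. Neither methylation nor binding was measured here.

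Gata1, the factor of red cells and platelets, sat at the background level. Its values were 4.40, 4.38 and 4.46 in Nkx2-1 high and 4.28, 4.32 and 4.18 in Nkx2-1 low. The groups did not overlap, but only by 0.06, and the difference of 0.15 ± 0.08 did not pass (limma adjusted p = 0.316, 95% interval -0.02 to 0.32). Non-overlap of this kind was common: it held for 3 of the 6 members and for 24.7% of all genes.

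Gata4, an early factor of heart, gonad and endoderm, was read at 5.69, 5.79 and 5.43 in Nkx2-1 high and at 5.44, 5.60 and 5.33 in Nkx2-1 low. The groups overlapped, and the difference was 0.18 ± 0.11 (limma adjusted p = 0.452, 95% interval -0.07 to 0.43). Gata5, a factor of endocardium and gut epithelium, stood at 4.46, 4.64 and 4.8 against 4.77, 4.53 and 4.55, with a difference of 0.02 ± 0.11 (limma adjusted p = 0.950, 95% interval -0.22 to 0.26). Both groups lay close above background for it. Gata5os, a transcript that overlaps Gata5 on the genome, had its own row, at 4.68 ± 0.04 in positive and 4.65 ± 0.19 in negative samples (SD, n = 3 each). How the probes separate overlapping transcripts is not stated in the sources used here.

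Gata6, the family member most tied to lung epithelium and primitive endoderm, was read at 5.0, 5.13 and 5.08 in Nkx2-1 high and at 5.22, 5.05 and 5.0 in Nkx2-1 low. The highest value belonged to a negative sample and the samples were otherwise interleaved. The difference was -0.02 ± 0.09 (limma adjusted p = 0.917), with a 95% interval from -0.22 to 0.17, so a Gata6 change as large as that of Gata3 lies outside it. The intervals of Gata1, Gata4 and Gata5 also end below the lower bound of Gata3, at 0.32, 0.43 and 0.26. These bounds are for the array signal. For Gata1, Gata5 and Gata6 it lay near background, which limits what they say of the transcripts. Gata5 and Gata6 had differences near 0 whose sign changed with the setting.

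The difference of Gata3 was also set against that of each other member within each sample. The log2 value of Gata3 minus that of Gata2 was higher by 1.74 in Nkx2-1 high, with a SD of 0.09 among positive and 0.30 among negative samples (n = 3 each). The same measure was higher by 0.60 against Gata4, by 0.76 against Gata5 and by 0.80 against Gata6. Gata1 gives no such value, since it was not above background in Nkx2-1 low. These differences share the Gata3 row and, for members with differences near 0, restate its rise. The exact two-sided permutation p was 0.1, the smallest this design allows, so the test could not pass 0.05 and adds nothing to the values.

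**Figure D3:**
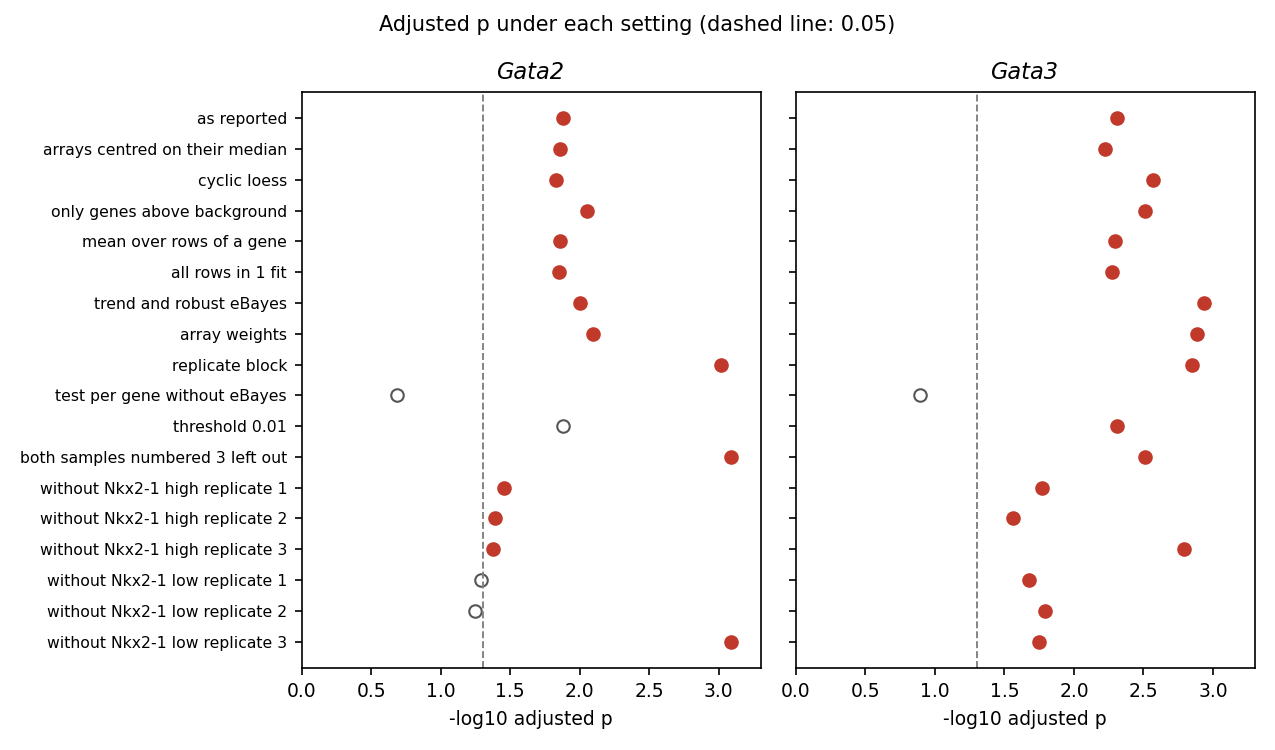
Adjusted p of Gata2 (left) and Gata3 (right), as -log10 on the horizontal axis, as reported and under 17 alternative settings. Filled symbols passed the threshold of their setting and open ones did not. The dashed line marks 0.05. Gata2 was called under 13 of the 17 and Gata3 under 16.

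None of the listed cofactor genes passed the test. Beside this list and those below stands the share over all genes, of which 2.90% rose and 3.09% fell. At that share a list of this size would hold few calls. Of 18 cofactor genes, all measured and above background, 0 rose and 0 fell by limma, and the median difference was -0.04. Zfpm1, the Fog partner of Gata1, stood at 6.24 ± 0.04 in positive and 6.12 ± 0.17 in negative samples (SD, n = 3 each). Zfpm2, the partner of Gata4 in heart and gonad, stood at 4.68 in both (difference 0.00 ± 0.08). The histone deacetylase gene Hdac2 (-0.36 ± 0.10, limma adjusted p = 0.0729) and Lmcd1, which encodes a LIM protein that binds Gata6 (-0.36 ± 0.15), had the largest differences of the list, and neither passed. Of 9 other genes with a GATA-type finger, 0 rose and 0 fell by limma. Trps1, a repressor of that kind in cartilage and hair, had a difference of 0.26 ± 0.09 (limma adjusted p = 0.140). Without adjustment, a limma p under 0.05 was reached by 0 cofactor genes that were higher and 4 that were lower. Among the other finger genes it was reached by 1 and 0. The share of all genes at that looser threshold was not counted. Unadjusted counts, here and below, therefore have no baseline and are not read as a result about a list.

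None of the listed blood partners and targets of Gata1 and Gata2 passed the test, where 6.0% of all genes did. At that share lists of this size would hold few calls, and many of these genes were not above background. Of 14 blood factor partners, 9 were above background, 0 rose and 0 fell by limma (1 up and 2 down at p under 0.05 unadjusted, median difference 0.07). Lmo2, an adaptor that joins Gata factors to Tal1, stood at 7.73 and 7.48 (difference 0.25 ± 0.09, limma adjusted p = 0.164), and Tal1 differed by 0.18 ± 0.10. Of 16 measured genes of red cells, platelets and mast cells, 0 rose and 0 fell by limma (0 and 0 at an unadjusted p under 0.05), and the embryonic globin genes Hbb-bh1 and Hbb-y and the haem synthesis gene Alas2 were not above background. Kit, a receptor gene and known Gata2 target, differed by -0.19 ± 0.12. Of 10 leukocyte markers 3 were above background and 0 passed in either direction by limma (0 and 0 unadjusted), and the pan-leukocyte gene Ptprc was not above background.

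Endothelium is a site of Gata2. Of its 16 markers 3 rose, the direction opposite to that of Gata2, 0 fell and 13 did not pass. At an unadjusted limma p under 0.05, 6 were higher and 2 lower, without a share of all genes to set beside them. The lymphatic receptor gene Flt4 rose 2.14-fold (1.10 ± 0.08), the angiopoietin receptor gene Tek at least 1.73-fold, and Eng, a co-receptor gene of TGF-beta signalling, by 0.88 ± 0.21, though Eng missed the threshold in 4 of the 6 fits without 1 sample (highest limma adjusted p 0.122). The median difference of the 16 was 0.03. Their mean log2 level ran from 4.97 to 5.06 in the Nkx2-1 high samples and from 4.78 to 4.84 in the Nkx2-1 low samples. Of the 16, 13 were above background in at least 1 group, while the endothelial cadherin gene Cdh5 was not above background and Pecam1 was above it only in Nkx2-1 high (4.43). The part of endothelial cells in the Gata values was not tested.

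Of the neuron and mesenchyme markers, most but not all were lower in positive cells, as Gata2 was. Of 10 neuron markers 6 fell, 0 rose and 4 did not pass, among them the synaptic gene Syt1 (0.03 ± 0.11), and their mean level ran from 4.78 to 5.10 in Nkx2-1 high and from 5.67 to 5.75 in Nkx2-1 low. Of 14 mesenchyme markers 9 fell, 0 rose and 5 did not pass, among them the receptor gene Pdgfrb (0.04 ± 0.16) and the matrix gene Dcn (0.16 ± 0.14), with a mean level from 6.98 to 7.31 against 7.91 to 8.17. The leading falls were Ina (-1.58 ± 0.14), a neuronal filament gene, and the matrix gene Postn (-2.34 ± 0.16). Both lists were above background in both groups as a mean, and their part in the Gata2 result was not tested. Among 10 measured genes of V2b and serotonergic neurons, which use Gata2 and Gata3, 2 fell and 0 rose: the serotonin transporter gene Slc6a4, at least 1.36-fold lower (missed in 4 of the 6 fits, highest limma adjusted p 0.0723), and the GABA synthesis gene Gad2, at least 1.28-fold lower. Sox14, a V2 interneuron gene, and Gad1, another GABA synthesis gene, differed by 0.03 ± 0.10 and 0.08 ± 0.08.

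Trophoblast expresses both Gata2 and Gata3, and 3 of its 10 measured genes were above background. Tfap2c, an AP-2 factor gene of trophoblast and neural crest, fell 4.31-fold (-2.11 ± 0.21). Hand1 rose by 0.34 ± 0.08 but passed in none of the 6 fits without 1 sample (limma adjusted p up to 0.148). Cdx2, Eomes and Elf5, which define early trophoblast, were not above background. In the list of luminal epithelium, where Gata3 works beside Foxa1 and the oestrogen receptor, 2 of 11 fell, Tfap2c and Epcam (-0.81 ± 0.11), and 0 rose. Foxa1 differed by -0.41 ± 0.24 and the keratin gene Krt8 by 0.16 ± 0.10.

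Genes of the organs that need Gata3 moved both ways. Of 16 measured genes of nephric duct and kidney 2 rose and 3 fell (median -0.09), where 2.90% and 3.09% of all genes did. Pax8, which acts upstream of Gata3 in the nephric duct and is also a thyroid factor gene, rose by 0.60 ± 0.10, and the kidney and mesothelium gene Wt1 by 0.48 ± 0.08. Osr1 (at least 1.38-fold lower), Hoxd11 (-0.60 ± 0.12) and Six2 (-0.40 ± 0.07), all genes of kidney mesenchyme, fell, and they missed the threshold in 2, 5 and 1 of the 6 fits without 1 sample (highest limma adjusted p 0.0708, 0.0771 and 0.0586). Ret, a receptor gene that Gata3 controls in the nephric duct, differed by 0.25 ± 0.08 (limma adjusted p = 0.109), Gfra1, its co-receptor gene, by 0.20 ± 0.11, and Pax2 by -0.11 ± 0.08. Of 11 parathyroid and pharyngeal pouch genes 0 rose and 2 fell: Pax9 (-1.28 ± 0.13) and Tbx1 (-0.54 ± 0.12, missed in 4 of the 6 fits, highest limma adjusted p 0.110). The parathyroid hormone gene Pth was not above background.

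In the other lists around Gata3 some genes passed, where 6.0% of all genes were called. Of 12 inner ear genes 1 rose, Pax8, and 2 fell, Dlx5 (-0.93 ± 0.10) and Tbx2 (-0.68 ± 0.16, missed in 3 of the 6 fits, highest limma adjusted p 0.114). Of 12 sympathoadrenal genes 1 rose, Hand1, and 0 fell. Hand2, a partner of Gata3 in sympathetic neurons, stood at 5.11 and 5.34 (limma adjusted p = 0.154), and Th, the enzyme gene of noradrenergic cells, differed by -0.30 ± 0.14. Of 13 measured T helper cell genes 2 rose, Maf (0.88 ± 0.08) and the interleukin receptor gene Il4ra (0.65 ± 0.08), neither of them confined to T cells. The T cell receptor genes Cd3d and Cd3g and the cytokine genes Il4 and Il5 were not above background, and Cd3e stood at 5.06 and 4.98.

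**Figure D4:**
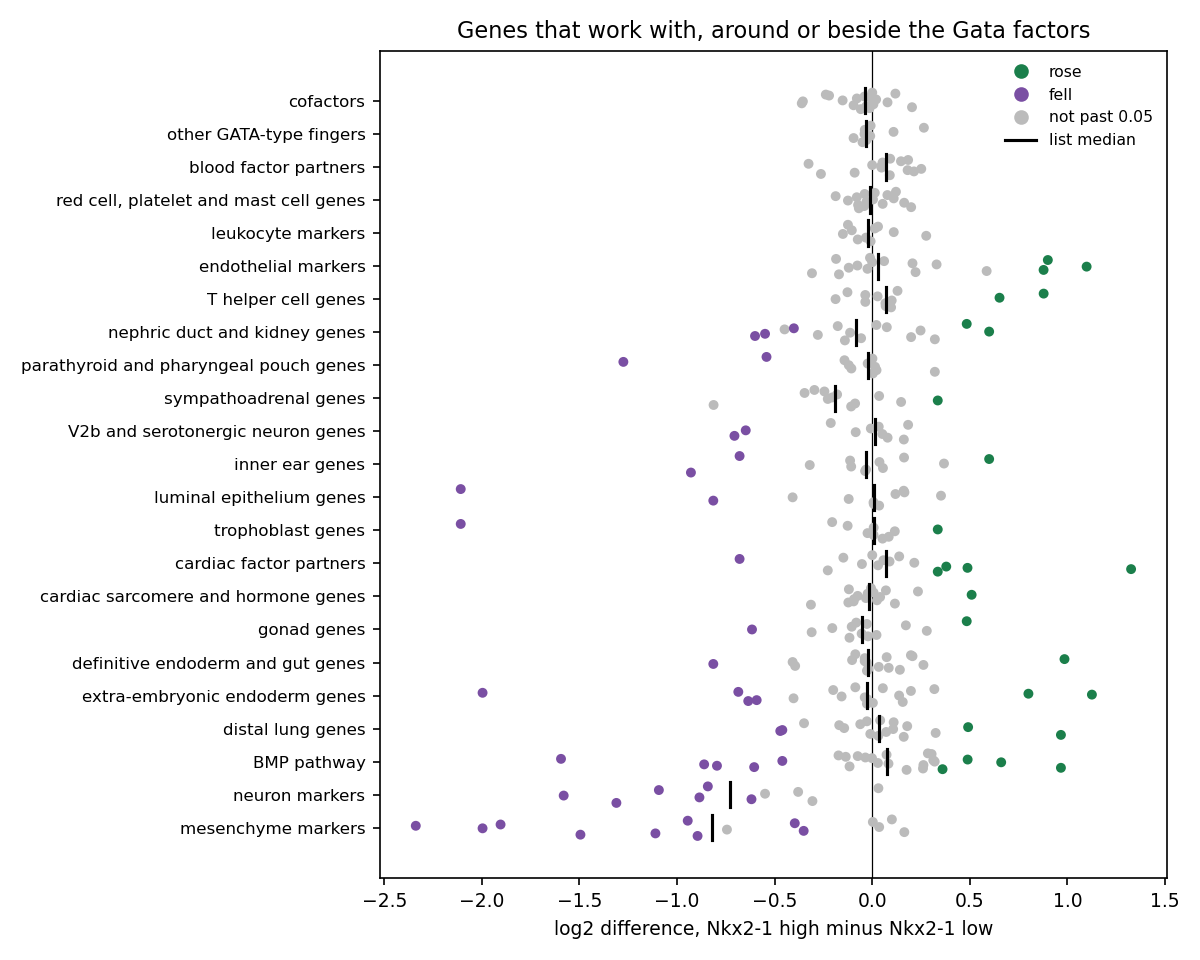
Log2 difference (Nkx2-1 high minus Nkx2-1 low) of each measured gene in 23 lists of Gata partners, targets, sites and cell type markers. Green points rose, purple points fell and grey points did not pass 0.05, and black bars are list medians. Most lists centre near 0, while neuron and mesenchyme markers lie to the left (medians -0.73 and -0.82).

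The heart is the classic setting of Gata4, Gata5 and Gata6. Of 14 cardiac factor partners 4 rose and 1 fell. Isl1, a LIM-homeodomain gene of cardiac progenitors and also of foregut and neurons, rose 2.51-fold (1.33 ± 0.15). Mef2a (0.49 ± 0.10), Mef2c (0.38 ± 0.09) and Hand1 rose as well, and missed the threshold in 4, 5 and 6 of the 6 fits without 1 sample (highest limma adjusted p 0.0874, 0.166 and 0.148). Tbx2 fell. Nkx2-5, the core partner of Gata4, stood at 6.39 and 6.18 (difference 0.22 ± 0.11, limma adjusted p = 0.319), and Tbx5 was not above background. Of 16 genes of the cardiac sarcomere and hormones 1 rose, the calcium release channel gene Ryr2 (0.51 ± 0.08), and 0 fell. The Gata4 targets Nppa and Myh6 were not above background, and Nppb differed by -0.07 ± 0.07. Of 13 gonad genes, around Gata4 with Zfpm2, Wt1 rose and Lhx9 fell, at least 1.48-fold (missed in 4 of the 6 fits, highest limma adjusted p 0.105).

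Endoderm lists around Gata4 and Gata6 did not move together. Of 18 definitive endoderm and gut genes 1 rose, Hhex, a homeobox gene of foregut (0.98 ± 0.15), and 1 fell, Epcam, with Hnf4a at 4.92 and 4.96. Of 19 extra-embryonic endoderm genes 2 rose and 4 fell. The laminin gene Lamc1 rose 2.18-fold, and Nid1, which encodes a basement membrane linker, rose by 0.80 ± 0.19 (missed in 5 of the 6 fits, highest limma adjusted p 0.135). Pdgfra fell 3.99-fold, Pth1r by 0.69 on the log2 scale, and the collagen genes Col4a1 and Col4a2 by 0.64 and 0.59. Sox7, Sox17, Afp and Ttr of that list were not above background. Sox17, Afp and Ttr are also in the definitive endoderm and gut list, so they do not tell the tissues apart.

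Around Gata6 in lung, 2 of 18 genes rose and 2 fell. Bmp4, a distal lung ligand gene and a known Gata4 and Gata6 target, rose 1.95-fold (0.97 ± 0.09), and the surfactant gene Sftpa1 rose by 0.49 ± 0.09. Fzd2, a Wnt receptor gene that Gata6 controls in lung, fell (-0.47 ± 0.08), as did Id2 (-0.46 ± 0.10, missed in 4 of the 6 fits, highest limma adjusted p 0.0868). These stood beside a Gata6 difference of -0.02. The BMP pathway, which switches on Gata2 and Gata3 in several tissues, split: of 25 genes 4 rose and 5 fell (median 0.07). Over all genes 2.90% rose and 3.09% fell. At an unadjusted limma p under 0.05, 9 of the 25 were higher and 5 lower, without a share of all genes to set beside them. The ligand gene Bmp4 rose while Bmp7 fell (-0.80 ± 0.15), and the antagonist gene Grem1 rose (0.66 ± 0.12). The target gene Msx1 fell 3.02-fold (-1.59 ± 0.11). The receptor gene Bmpr1b fell, from a mean of 4.39 in Nkx2-1 low, close above background. The other rises were Id4 (0.49 ± 0.10) and Bambi (0.36 ± 0.09), missed in 4 and 6 of the 6 fits. The other falls were Bmp5 (-0.61 ± 0.11, missed in 1 of the 6 fits) and Id2.

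The genes next to the members on the genome were read in the same fit. Of 24 neighbours, 2 measured protein-coding genes on each side of each member in RefSeq's gene order, 1 rose and 1 fell, where 6.0% of all genes were called, so the count does not set the neighbours apart. Celf2, an RNA-binding protein gene beside Gata3, rose, with 7.17 in Nkx2-1 high and 6.53 in Nkx2-1 low (0.64 ± 0.08, limma adjusted p = 0.00130), while Taf3, on the other side of Gata3, differed by -0.12 ± 0.08. Fdft1, a cholesterol synthesis gene near Gata4, fell (-0.38 ± 0.09). Of the 4 neighbours of Gata2, Rpn1 (-0.27 ± 0.08) and Eefsec (-0.29 ± 0.08) were lower without passing (limma adjusted p = 0.0781 and 0.0893).

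Among genes above background, those whose pattern over the 6 samples was most like that of Gata3 were Cdh3, the P-cadherin gene, and then Camk4, Sh3bgrl2, Grem1 and Pcbp3. Likeness was the Euclidean distance between log2 profiles centred per gene, 0.10 for Cdh3 and 0.16 for Pcbp3, where the median gene lay at 1.06 from Gata3. The 5 rose by 0.66 to 0.82, which the choice itself brings about, since the distance includes the group difference. For Gata2 the closest were Tiam2, Hpgd, the Wnt ligand gene Wnt5a, Tmem119 and Lsp1, at 0.22 to 0.30, where the median gene lay at 1.35. They fell by 0.82 to 1.08 on the log2 scale, which again follows from the choice. The closest matches of Gata2 lay farther from it than those of Gata3 did, and so did the median gene. The reason was not tested.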

How the data were processed

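The samples, 3 sorted as Nkx2-1 high and 3 as Nkx2-1 low, were grouped by their titles. The authors deposited log2 values made with RMA, per the submitters' processing notes. Neither the RMA version nor a genome build is given in the sources used here. The log2 scale was taken from RMA and the range of the values. RMA equalises arrays, so a change common to most genes would not show, and the RNA had been amplified (per the labels' protocols), which can alter relative signals. The number of arrays limits the precision. Scan dates were not used here.

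Of 29011 deposited rows, 21789 had 1 gene symbol, and the row with the highest mean was used for each of 19938 genes. The background level is the 95th percentile of 1210 receptor rows. A gene above it in 1 group has a fold against that level ("at least"). The test was limma 3.58.1 (lmFit, eBayes; R 4.3.3) with a group term alone, Benjamini-Hochberg adjusted over all genes, at a threshold of 0.05. Tested on simulated data for Nkx2-1 high against low with 19938 genes, this recovered 80.6% of changes of 0.5 (log2) and 100% of changes of 1, and 13 unchanged genes were called as well. Permutation tests used scipy 1.17.1 and figures matplotlib 3.10.9.

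The members and the 23 lists (297 of 318 genes measured) were chosen with earlier results of these data known. Named from each list were up to 4 called genes with the largest change, or 2 where none was called, with 12 fixed genes, and others chosen after their values were seen. A planned comparison of protein sequences was not made here.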

Additional observations from a re-analysis of the deposited data

How the results depend on the processing

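Gata3 kept its direction under all 17 alternatives (0.67 to 0.90) and its call under 16, and Gata2 kept its direction under all 17 (-1.19 to -0.81) and its call under 13. The kept direction adds little. The groups do not overlap for either gene, so leaving samples out or weighting them could not change it. Several other settings change the test and not the estimate. A test per gene without eBayes called 89 genes (49 higher, 40 lower) and 0 members, with Gata2 at -0.96 (adjusted p = 0.205) and Gata3 at 0.78 (adjusted p = 0.128). At a threshold of 0.01, 507 genes (286 higher, 221 lower) and 1 member, Gata3, were called, and Gata2, at -0.96, was not. Without both samples numbered 3, 407 genes were lower. Without 1 sample each, limma called 624 to 1086 genes (340 to 571 higher, 284 to 515 lower) and 1 or 2 members, with Gata2 from -1.19 to -0.81 and Gata3 from 0.67 to 0.90. With the background at the 99th percentile (5.33), 3 members stayed above it (Gata2, Gata3 and Gata4). The lower counts without samples come with fewer arrays, and the cause of the rest was not tested. Gata1 and Gata4 stayed above 0 and uncalled under all 17, while Gata5 and Gata6 changed sign without a call under 4 and 3.

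Deviations from the group means went with the replicate numbers only in part. For replicates 1, 2 and 3, same-numbered samples correlated across genes at 0.181, -0.004 and 0.277. Nkx2-1 high replicates 1 and 3 each correlated best with the Nkx2-1 low sample of their own number. Nkx2-1 high replicate 2 correlated best with Nkx2-1 low replicate 1 (0.146). The labels name no pairing, so whether the samples were paired is not settled. With the replicate block 1470 genes were called, with Gata2 at -0.96 (adjusted p = 0.000972) and Gata3 at 0.78 (adjusted p = 0.00141). Signal near background limits what Gata1, Gata5 and Gata6 can show.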
